A study of Mus musculus with 8 samples.

Results

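The 10 genes described here drive and gate the passage of a cell from G1 into S phase: the D cyclins Ccnd1, Ccnd2 and Ccnd3, the kinases Cdk2, Cdk4 and Cdk6, the RB family Rb1, Rbl1 and Rbl2, and the transcription factor E2f1. They were taken by name from the 23343 gene symbols of the deposited tables, by a rule that uses no measured value, though with earlier results of these data known. All 10 passed the filter on low counts and are among the 14907 genes tested. RNA-seq was made from spermatogonia of C57BL/6 mouse testis at postnatal day 7, in 8 libraries that form 4 groups of 2: control and dKO cells of the Thy1+ population and of the cKit+ population. Control stands for the genotype labelled PRC1ctrl and dKO for a double knockout of PRC1, a Polycomb complex that keeps genes silent. The labels name neither the genes deleted, nor a Cre driver, nor the alleles that the controls carry, nor whether 2 libraries of a group came from different animals. The p-values therefore measure the spread between these libraries, which may be technical. Thy1 is a surface protein used to enrich undifferentiated spermatogonia, which include the stem cells, and the receptor Kit is used to enrich differentiating spermatogonia.

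D cyclins are made in response to growth signals, bind Cdk4 or Cdk6, and the resulting kinases phosphorylate Rb1 and its relatives Rbl1 and Rbl2. Unphosphorylated RB proteins hold E2F factors, so their phosphorylation frees activators such as E2f1 to switch on genes of DNA replication and the E cyclins, which then act through Cdk2. Rbl2, and in cycling cells Rbl1, work mainly with repressive E2F factors in the DREAM complex, which keeps cell cycle genes low in resting cells. In the postnatal testis this circuit meets spermatogonia that divide while they leave the undifferentiated state, and the somatic cells around them.

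Library totals ran from 6763908 to 10976869 counts. The summed level of 22 core germ cell genes, in CPM (counts scaled to library size with TMM, used for 1 gene across libraries), was 3448 to 3751 in Thy1 control and 2406 to 3026 in cKit control, and 2765 to 3137 and 750 to 1069 in the dKO of each. In cKit dKO 19 of the 22 were lower than in control, and 7 of 9 differentiating markers were too. In Thy1 dKO 1 of the 22 and 0 of the 9 were. Of 14 undifferentiated markers tested, 3 were lower and 0 higher in Thy1 dKO, and 3 were lower and 1 higher in cKit dKO. Somatic markers were abundant: 10 Leydig genes summed to 2757 to 3407 CPM in Thy1 control and to 3982 to 4434 in Thy1 dKO. They summed to 11599 to 13980 in cKit control and to 16146 to 18721 in cKit dKO. Peritubular and stromal genes (14) summed to 10451 to 14062 CPM in the Thy1 libraries, 3164 to 3241 in cKit control and 5044 to 6293 in cKit dKO, where 9 of 14 were higher than in control. Sertoli genes (14) summed to 422 to 428 CPM in Thy1 control and 550 to 590 in Thy1 dKO. In cKit they summed to 931 to 1001 in control and 1416 to 1426 in dKO, with 6 of 14 higher in the last. Of the other cell types, 4 of 10 endothelial and 2 of 7 mast cell genes were higher in cKit dKO than in control. Of the Leydig genes 5 of 10 were higher and 1 lower there, and of the macrophage genes 0 of 11 were called. In Thy1 dKO 2 of 10 Leydig, 1 of 14 Sertoli and 1 of 10 endothelial genes were higher and 0 lower. There 0 of the peritubular and stromal, macrophage and mast cell genes were called. Beside these counts, 13.2% of all genes tested were higher and 15.4% lower in cKit dKO. In Thy1 dKO 0.362% were higher and 0.262% lower. Macrophage genes (11) summed to 962 to 1092 CPM in Thy1 control, 1323 to 1476 in Thy1 dKO and 152 to 549 in cKit. Endothelial genes (10) summed to 322 to 323 CPM in Thy1 control and 475 to 495 in Thy1 dKO. In cKit they summed to 213 to 216 in control and 415 to 439 in dKO. No defining marker of these lists was at 0 in a whole group except T in cKit control and Fcer1a in 3 groups. Fewer cells of a type and less RNA per cell cannot be told apart in bulk RNA, and the part of these shifts in the values below was not tested. Ring1 and Rnf2, the catalytic subunits of PRC1, gave 23 to 75 and 784 to 1686 counts per library. Rnf2 stood at 103 to 128 CPM in Thy1 and 125 to 146 CPM in cKit with no dKO library below all controls; these counts cover the whole transcript and check nothing about a deletion of a part. The facility record numbers of the Thy1 and cKit libraries do not interleave, so record range and population cannot be told apart.

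Promoter sequence was at hand for 7 of the 10 genes, from RefSeq (GRCm38.p6), as 250 bases before the start site. The 3 printed here held a searched word and had a RefSeq start site at, or within 68 bases of, the deposited one. The E2F words searched were TTTCGCGC, TTTGGCGC, TTTCCCGC and TTTGCCGC on both strands, and the E-box word of Myc-type factors was CACGTG, the same on both strands. Capitals mark a match. Rbl1 lies at chr2:157204535-157204784 (minus strand), Cdk2 at chr10:128705052-128705301 (minus strand) and Cdk4 at chr10:127063285-127063534 (plus strand).
Rbl1: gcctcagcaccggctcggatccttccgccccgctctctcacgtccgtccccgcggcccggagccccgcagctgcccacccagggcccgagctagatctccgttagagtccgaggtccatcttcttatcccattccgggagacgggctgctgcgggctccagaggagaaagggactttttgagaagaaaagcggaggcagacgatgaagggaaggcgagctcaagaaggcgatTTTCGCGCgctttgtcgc
Cdk2: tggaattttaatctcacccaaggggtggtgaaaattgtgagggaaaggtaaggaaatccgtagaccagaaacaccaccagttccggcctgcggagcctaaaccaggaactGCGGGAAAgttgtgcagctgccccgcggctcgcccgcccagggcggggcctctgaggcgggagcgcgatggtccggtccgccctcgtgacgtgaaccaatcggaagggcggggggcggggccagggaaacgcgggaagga
Cdk4: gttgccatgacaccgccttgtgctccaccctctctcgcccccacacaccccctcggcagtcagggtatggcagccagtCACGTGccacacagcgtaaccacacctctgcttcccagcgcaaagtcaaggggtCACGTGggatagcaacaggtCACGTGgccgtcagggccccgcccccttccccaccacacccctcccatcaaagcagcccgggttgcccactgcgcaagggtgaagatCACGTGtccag
Rbl1 carried TTTCGCGC at bases -18 to -11 from its start site, and Cdk2 carried TTTCCCGC on the opposite strand at -140 to -133. At least 1 E2F word was found in 611 of 32851 RefSeq promoters of the same length (1.86%). Cdk4 carried CACGTG 4 times, beginning at -172, -118, -98 and -11. At least 1 CACGTG was found in 6.02% of the promoters and at least 4 in 7 promoters (0.0213%). Cdk6, whose RefSeq start site was 419 bases from the deposited one, held 1 CACGTG, and the windows of Ccnd3 and Rbl2 held neither word. The E2f1 window held neither word, but its RefSeq start site was 426 bases from the deposited one, so it lay inside the deposited gene. Bases before the deposited E2f1 start were not searched. A match of letters is a description and not evidence of binding.

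The D cyclins moved apart in the cKit+ cells: Ccnd1 fell, Ccnd3 rose and Ccnd2 did not pass the test. Ccnd1 (chromosome 7, 144929931 to 144939925, minus strand, mm10), the D cyclin most often tied to growth factor signalling, stood at 147 and 144 CPM in the cKit control libraries and at 66.4 and 70.9 CPM in cKit dKO. Both knockout libraries lay below both controls. The change was -1.08 ± 0.12 on the log2 scale (log2 fold change ± SE, n = 2 libraries a group), 2.12-fold lower, with an adjusted p = 2.0e-05 by the quasi-likelihood test of edgeR after Benjamini-Hochberg adjustment. Each such SE was worked back from the F value of that test. It rests on a spread estimated over all 8 libraries and moderated across genes, not on the 2 libraries of a group alone. In Thy1, Ccnd1 stood at 153 and 145 CPM in control and 154 and 136 CPM in dKO, groups that overlapped. Its change there was -0.04 ± 0.12 (edgeR adjusted p = 0.93).

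Ccnd2 (chromosome 6, 127125709 to 127151048, minus strand), the D cyclin known for its place in spermatogonial differentiation, had the most counts of the 10 genes in Thy1. It stood at 323 and 316 CPM in Thy1 control and 430.3 and 413 CPM in Thy1 dKO. These groups did not overlap, but the change of 0.40 ± 0.12 did not pass (edgeR adjusted p = 0.13). It did pass with DESeq2, without a filter on low counts and in a fit of the 4 Thy1 libraries alone. In cKit its values were 153 and 178 CPM in control and 196 and 161 CPM in dKO, which overlapped (0.11 ± 0.12, edgeR adjusted p = 0.53). Both control and dKO cells of the cKit population held less Ccnd2 than the Thy1 cells, by -0.95 ± 0.12 in control (edgeR adjusted p = 3.8e-05) and -1.24 ± 0.12 in dKO (edgeR adjusted p = 2.9e-06), which became -0.52 (not called) and 0.52 under core germ cell scaling.

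Ccnd3 has 2 deposited entries on chromosome 17, plus strand, from 47505051 and from 47593467, both ending at 47599688, and their counts were summed. The upstream entry had 0 counts in 4 libraries and 88 to 264 in the others, while the sums of replicates were close. Summed Ccnd3 stood at 93.9 and 97.9 CPM in Thy1 control, 97.4 and 95.7 CPM in Thy1 dKO, and 94.5 and 99.5 CPM in cKit control. In cKit dKO it stood at 138 and 137 CPM, above all 6 other libraries. The change in cKit was 0.51 ± 0.11, 1.42-fold higher (edgeR adjusted p = 0.0042), and that in Thy1 was 0.01 ± 0.12 (edgeR adjusted p = 0.98). On deposited RPKM with limma the cKit call was lost at pseudocounts of 0.1 and 1. The change was 0.17 and 0.16 there, beside medians of -0.29 and -0.16 over all genes. Ccnd3 overlaps Bysl on the opposite strand by 358 bases, and the strand setting of the counting is not given in the sources used here.

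**Figure D1:**
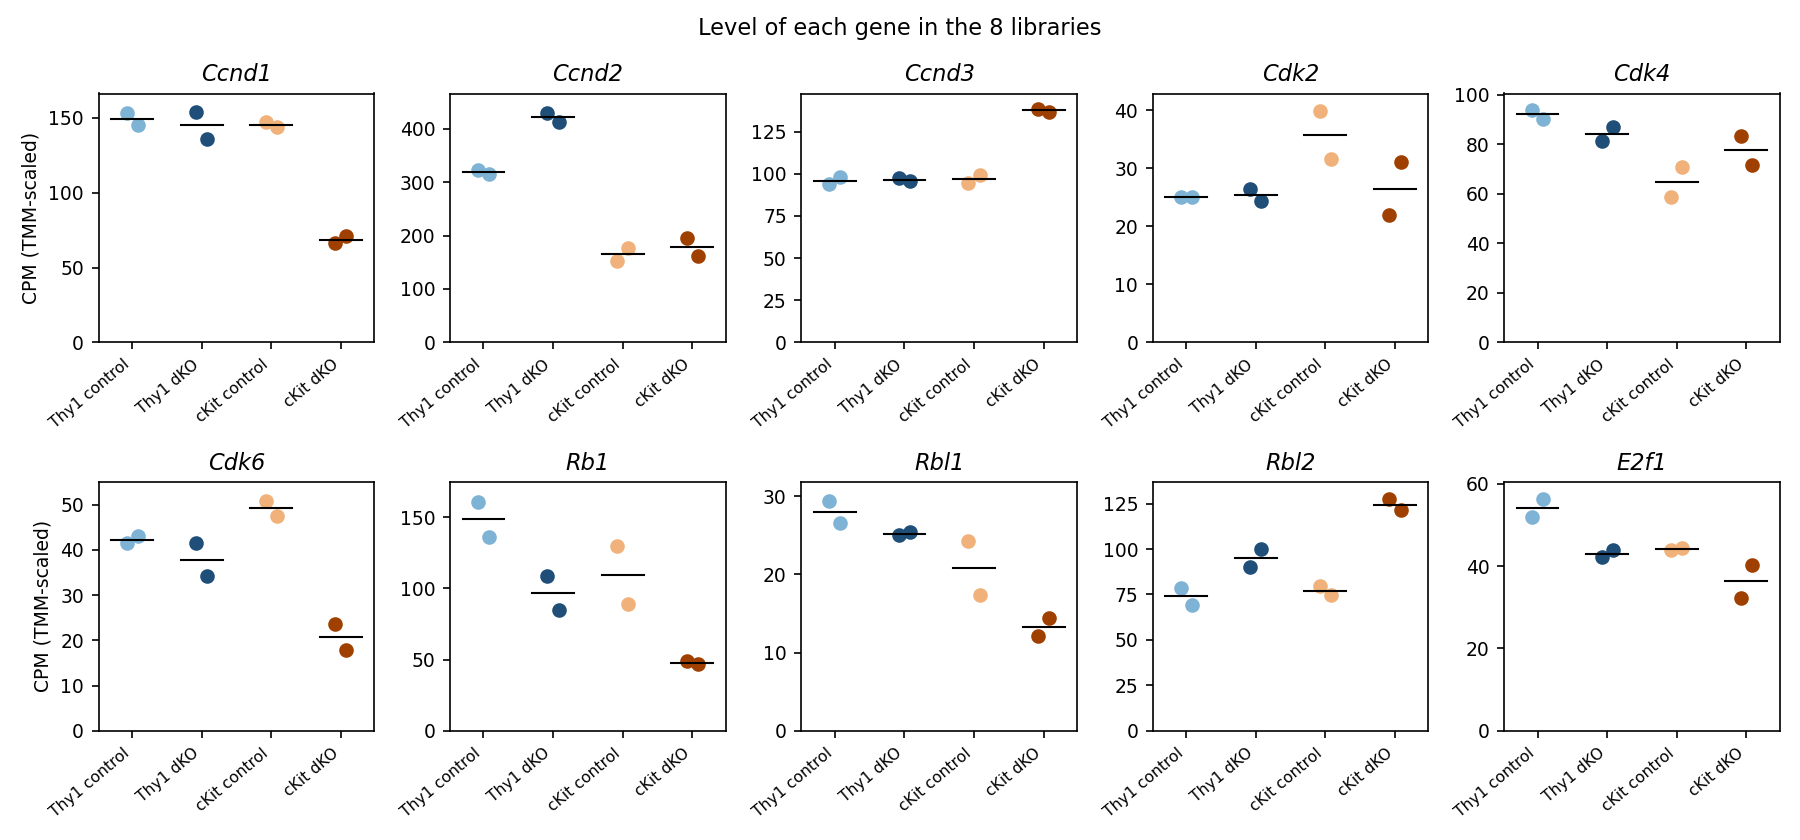
Level of each of the 10 genes (CPM, TMM scaled; 1 panel a gene, its own axis from 0) in the 4 groups; each point is 1 library and each bar the mean of 2. Ccnd1, Cdk6, Rb1, Rbl1 and E2f1 have both cKit dKO points below the other 6 libraries, and Ccnd3 and Rbl2 have both above them.

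As a share of the summed D cyclin RPKM (reads scaled by transcript length and library size, used for levels between genes), Ccnd1 was 34.5% and 31.9% in cKit control and 14.4% and 16.1% in cKit dKO. Ccnd3 was 42.0% and 42.3% in control and 57.6% and 59.8% in dKO, so that it made up most of the D cyclin RNA there. Ccnd2 was 23.5% and 25.9% in control and 28.0% and 24.1% in dKO, and these overlapped. A share within a family does not depend on how libraries are scaled. In Thy1 the order was another one: Ccnd2 led with 39.0% and 38.5% in control and 45.3% and 46.1% in dKO. With 2 libraries against 2 the exact permutation test, two-sided, cannot go below p = 0.333, and each pair of groups that did not overlap gave that value. The summed D cyclin RPKM was 38.9 ± 0.596 (SD, n = 2) in cKit control and 31.4 ± 0.389 in cKit dKO. With the Ccnd3 entry of most counts in place of the sum, 7 of the D cyclin shares moved by more than 1 SD.

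Among the kinases Cdk6 fell in cKit dKO, while Cdk4, its partner in binding D cyclins, did not pass the test. Cdk6 (chromosome 5, 3344312 to 3522225, plus strand) stood at 50.7 and 47.6 CPM in cKit control and at 23.5 and 17.9 CPM in cKit dKO. Both knockout libraries were below every other library. The change of -1.25 ± 0.18, 2.38-fold lower, passed (edgeR adjusted p = 1.6e-04). In Thy1 it stood at 41.6 and 43.0 CPM in control and 41.4 and 34.2 CPM in dKO; the change was -0.16 ± 0.17 (edgeR adjusted p = 0.75).

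Cdk4 (chromosome 10, 127063603 to 127067282, plus strand) stood at 94.0 and 90.3 CPM in Thy1 control and 81.5 and 86.9 CPM in Thy1 dKO, which did not overlap. It stood at 58.6 and 70.8 CPM in cKit control and 83.6 and 71.8 CPM in cKit dKO, again without overlap. Neither change passed: -0.13 ± 0.14 in Thy1 (edgeR adjusted p = 0.73) and 0.27 ± 0.14 in cKit (edgeR adjusted p = 0.17). Cdk4 was lower in cKit control than in Thy1 control by -0.51 ± 0.14 (edgeR adjusted p = 0.015). That call was lost under core germ cell scaling (-0.077), with limma on RPKM and without Thy1 control replicate 1, Thy1 control replicate 2 or cKit control replicate 1, and over the settings other than core germ cell scaling the change ran from -0.66 to -0.26.

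Cdk2 (chromosome 10, 128697939 to 128705051, minus strand), the kinase of cyclins E and A, stood at 25.0 and 25.0 CPM in Thy1 control and 26.4 and 24.4 CPM in Thy1 dKO. It stood at 39.9 and 31.6 CPM in cKit control and 21.9 and 31.1 CPM in cKit dKO, groups that nearly met. The changes were 0.02 ± 0.21 in Thy1 (edgeR adjusted p = 0.98) and -0.44 ± 0.20 in cKit (edgeR adjusted p = 0.12). Without cKit dKO replicate 2 the cKit change was -0.68. With limma on RPKM it passed at pseudocounts of 0.1 and 1. The change was -0.77 and -0.63 there, beside medians of -0.29 and -0.16 over all genes.

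Within the kinases, Cdk4 held 53.4% and 61.4% of the summed RPKM in cKit control and 76.5% and 72.1% in cKit dKO. Cdk6 held 25.2% and 22.5% in control and 11.7% and 9.77% in dKO. Neither pair of groups overlapped, and each gave p = 0.333, the smallest the exact permutation test allows. In Thy1 the shares of Cdk4 and Cdk6 overlapped between control and dKO.

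**Figure D2:**
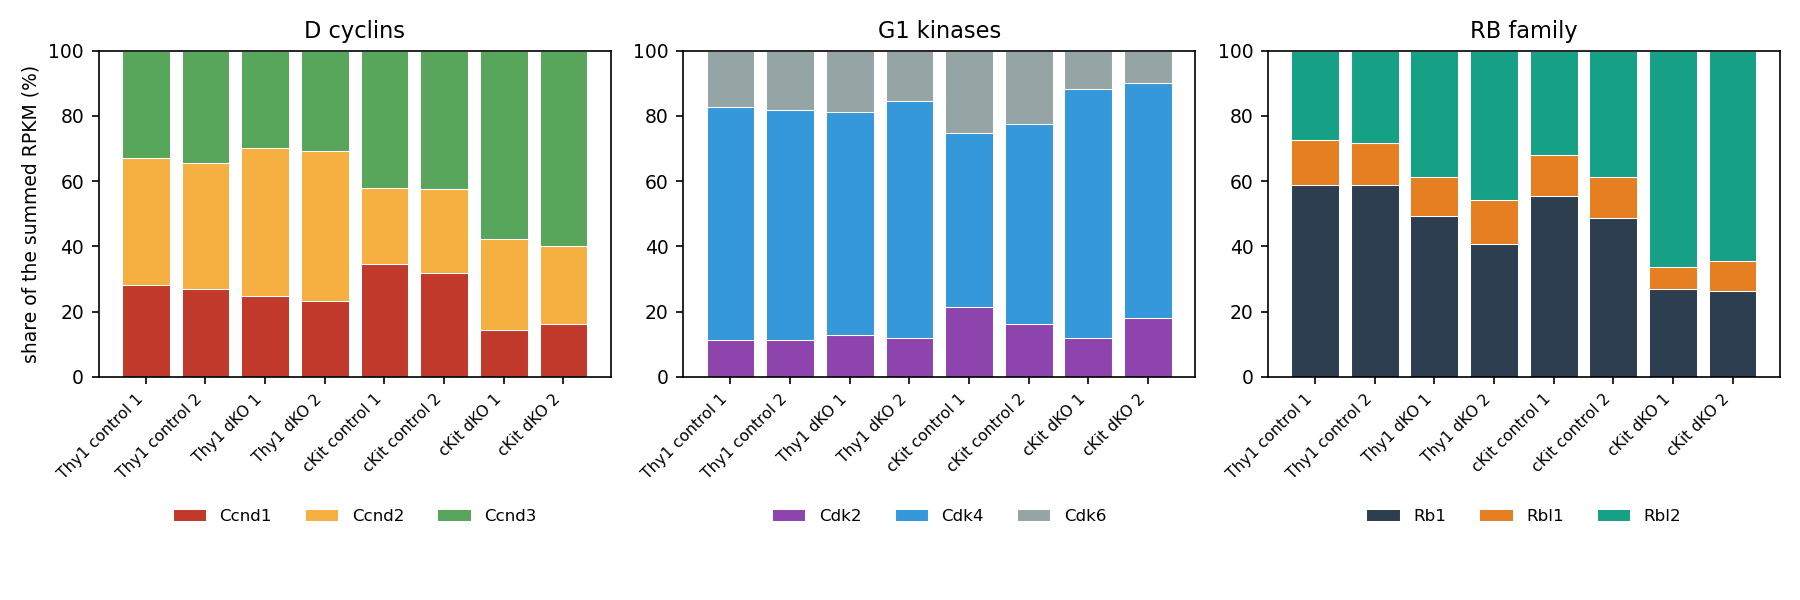
Share of each gene in the summed RPKM of its family (percent, axis from 0), in panels for the D cyclins, the G1 kinases and the RB family. Each stacked bar is a single library. In the mean of 2 libraries, from cKit control to cKit dKO, Ccnd3 went from 42.1% to 58.7%, Cdk4 from 57.4% to 74.3% and Rbl2 from 35.4% to 65.3%.

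The RB family split by member, with Rb1 lower and Rbl2 higher in cKit dKO. Rb1 (chromosome 14, 73195502 to 73325791, minus strand), the retinoblastoma gene, stood at 130.0 and 88.9 CPM in cKit control and at 48.8 and 46.9 CPM in cKit dKO. The controls lay far from each other and both were above the knockouts. The change was -1.20 ± 0.18, 2.29-fold lower (edgeR adjusted p = 2.0e-04). In Thy1, Rb1 stood at 161 and 136 CPM in control and 108 and 84.7 CPM in dKO, also without overlap. That change of -0.62 ± 0.17, 1.54-fold lower, did not pass (edgeR adjusted p = 0.10). It passed in 7 of the 19 settings run other than core germ cell scaling, among them DESeq2, the fit of the 4 Thy1 libraries alone and the fits without cKit control replicate 2, cKit dKO replicate 1 or cKit dKO replicate 2. Over the 19 settings the change ran from -0.81 to -0.45. Rb1 overlaps Lpar6 on the opposite strand by 2468 bases; Lpar6 had 89 to 139 counts a library.

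Rbl2 (chromosome 8, 91070094 to 91123844, plus strand), the RB relative of resting cells, stood at 79.4 and 74.8 CPM in cKit control and at 127 and 121 CPM in cKit dKO. Both knockout libraries were above every other library. The change of 0.69 ± 0.13, 1.61-fold higher, passed (edgeR adjusted p = 9.4e-04). With limma on RPKM the call was lost at pseudocounts of 0.1 and 1. The change was 0.34 and 0.30 there, beside medians of -0.29 and -0.16 over all genes. In Thy1 it stood at 78.6 and 69.1 CPM in control and 90.1 and 100.2 CPM in dKO, which did not overlap (0.36 ± 0.13, edgeR adjusted p = 0.20). Rbl2 overlaps Aktip on the opposite strand by 346 bases; Aktip had 101 to 332 counts a library.

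Rbl1 (chromosome 2, 157145894 to 157204534, minus strand), the RB relative of cycling cells whose promoter carries an E2F word above, was the lowest of the 10 genes in RPKM in every group. It stood at 29.5 and 26.5 CPM in Thy1 control, 25.0 and 25.5 CPM in Thy1 dKO, 24.2 and 17.4 CPM in cKit control and 12.2 and 14.4 CPM in cKit dKO. The cKit change of -0.65 ± 0.23 passed narrowly (edgeR adjusted p = 0.042). The call held in only 6 of the 19 settings other than core germ cell scaling and in 1 of the 8 fits that left out a library, that without cKit control replicate 2, and was lost with DESeq2; over these settings the change ran from -1.09 to -0.38. The Thy1 change was -0.15 ± 0.21 (edgeR adjusted p = 0.82).

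Rb1 made up 58.9% and 58.8% of the RB family RPKM in Thy1 control and 49.3% and 40.8% in Thy1 dKO. In cKit it went from 55.3% and 48.8% in control to 26.8% and 26.3% in dKO. Rbl2 made up 27.3% and 28.2% in Thy1 control and 38.8% and 45.7% in Thy1 dKO. In cKit its share was 32.0% and 38.8% in control and 66.2% and 64.4% in dKO. So in both populations the Rb1 share was lower and the Rbl2 share higher in both knockout libraries than in both controls, each with the smallest possible exact permutation p = 0.333. Rb1 led the family in all 6 libraries outside cKit dKO except Thy1 dKO replicate 2, where Rbl2 did, and Rbl2 led it in both cKit dKO libraries.

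E2f1 (chromosome 2, 154559639 to 154569852, minus strand), the activator freed from Rb1, stood at 51.8 and 56.3 CPM in Thy1 control and 42.1 and 43.8 CPM in Thy1 dKO. It stood at 44.0 and 44.4 CPM in cKit control and 32.3 and 40.3 CPM in cKit dKO. In each population both knockout libraries were below both controls, but neither change passed: -0.33 ± 0.16 in Thy1 (edgeR adjusted p = 0.36) and -0.28 ± 0.16 in cKit (edgeR adjusted p = 0.20). The cKit change passed with limma on log2(RPKM + 0.1), where it was -0.62 beside a median of -0.29 over all genes.

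**Figure D3:**
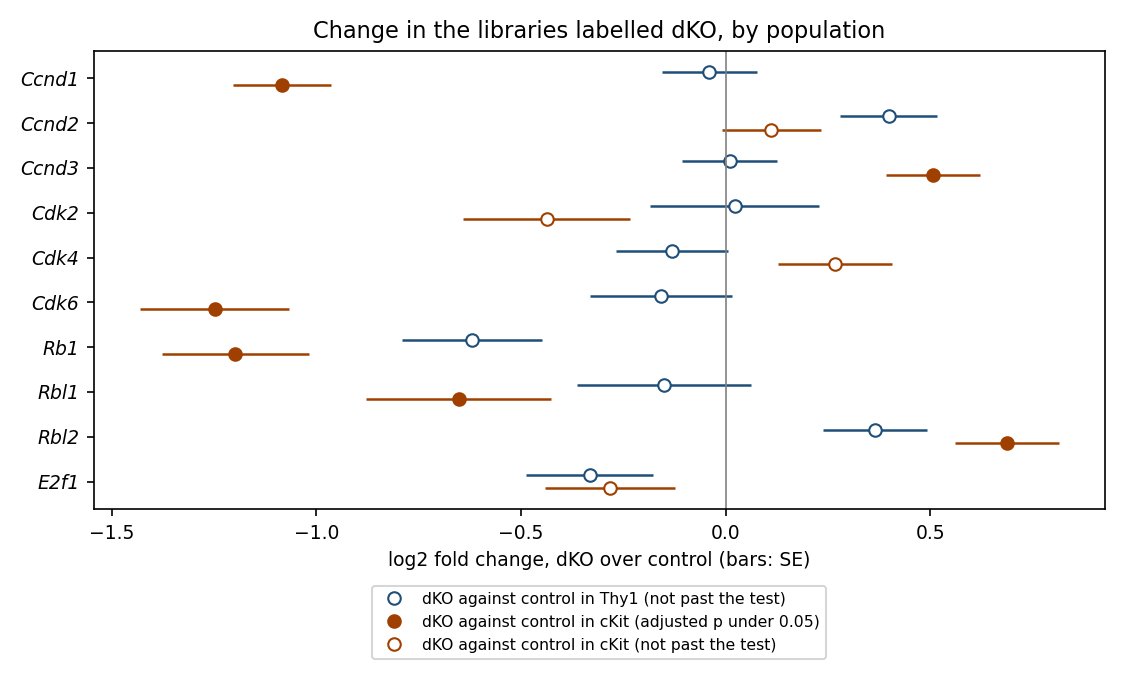
Log2 fold change of each gene with its standard error (edgeR, 2 libraries a group) between dKO and control of Thy1 and of cKit; filled points passed an adjusted p of 0.05 over 14907 genes. No Thy1 point is filled; in cKit, Ccnd1, Cdk6, Rb1 and Rbl1 are filled below 0 and Ccnd3 and Rbl2 above it.

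In all, 2 of the 10 genes were higher and 4 lower in cKit dKO, where 28.6% of the 14907 genes tested passed (13.2% higher and 15.4% lower). The median of the 10 changes was -0.36, beside 0.03 over all genes. Groups did not overlap for 9 of the 10 genes in cKit, beside 60.7% of all genes. In Thy1 dKO 0 of the 10 passed edgeR, beside 0.624% of all genes (0.362% higher and 0.262% lower). An unadjusted p under 0.05 was found for 4 of the 10, beside 2059 of all 14907 genes. DESeq2 called Ccnd2 higher and Rb1 lower, beside 191 higher and 143 lower of all genes, and limma on RPKM called 0. The median of the 10 was -0.09 there, beside 0.03 over all genes, and groups did not overlap for 7 of the 10, beside 51.3% of all genes.

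The difference between the knockout changes in cKit and in Thy1 was tested itself, and it passed for Ccnd1 and Cdk6, both lower, beside 5.92% of all genes (1.86% higher and 4.06% lower). For Ccnd1 the difference was -1.04 ± 0.17 (edgeR adjusted p = 0.0027), and for Cdk6 -1.09 ± 0.25 (edgeR adjusted p = 0.019). Under core germ cell scaling both differences turned positive, 0.27 and 0.26, beside a median of 1.29 over all genes. The Ccnd1 call held in all 18 settings other than core germ cell scaling, and the Cdk6 call in 12 of 18. The Cdk6 call was lost without Thy1 control replicate 1, Thy1 control replicate 2, Thy1 dKO replicate 1, cKit control replicate 1 or cKit dKO replicate 2, and with the entry of most counts per symbol. The difference did not pass for Ccnd3 (0.50 ± 0.16, edgeR adjusted p = 0.090, passing with DESeq2 and with a stricter filter), Rb1 (-0.58 ± 0.25, edgeR adjusted p = 0.19), Rbl2 (0.32, edgeR adjusted p = 0.33) or Rbl1 (-0.50, edgeR adjusted p = 0.39). For these the data do not show that the knockout change differed between the populations. It did not pass for Ccnd2, Cdk2, Cdk4 or E2f1 either, at -0.29, -0.46, 0.40 and 0.05.

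All signs above are relative to the bulk of the RNA, since TMM centres the change of all genes near 0 (median 0.03 in cKit dKO). With libraries set equal on the summed core germ cell genes instead, which were lower in cKit dKO, the median of all genes in cKit dKO was 1.63 and the 10 genes stood at 0.39 to 2.31. Under that scaling 7 of the 10 were called higher and 0 lower, so the falls of Ccnd1 (0.51, edgeR adjusted p = 0.081), Cdk6 (0.39, edgeR adjusted p = 0.24), Rb1 (0.44, edgeR adjusted p = 0.14) and Rbl1 (0.96) turned their sign. Measured against the median of 1.63 over all genes, Ccnd1, Cdk6, Rb1 and Rbl1 lay below it and Ccnd3 and Rbl2 above it. That scaling shifts all genes together by construction, so these positions are not separate evidence. The split of all genes was 1965 higher and 2294 lower with TMM and 12114 higher and 64 lower with this scaling. With limma on log2(RPKM + 0.1) it was 443 higher and 4042 lower, with a median of -0.29.

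**Figure D4:**
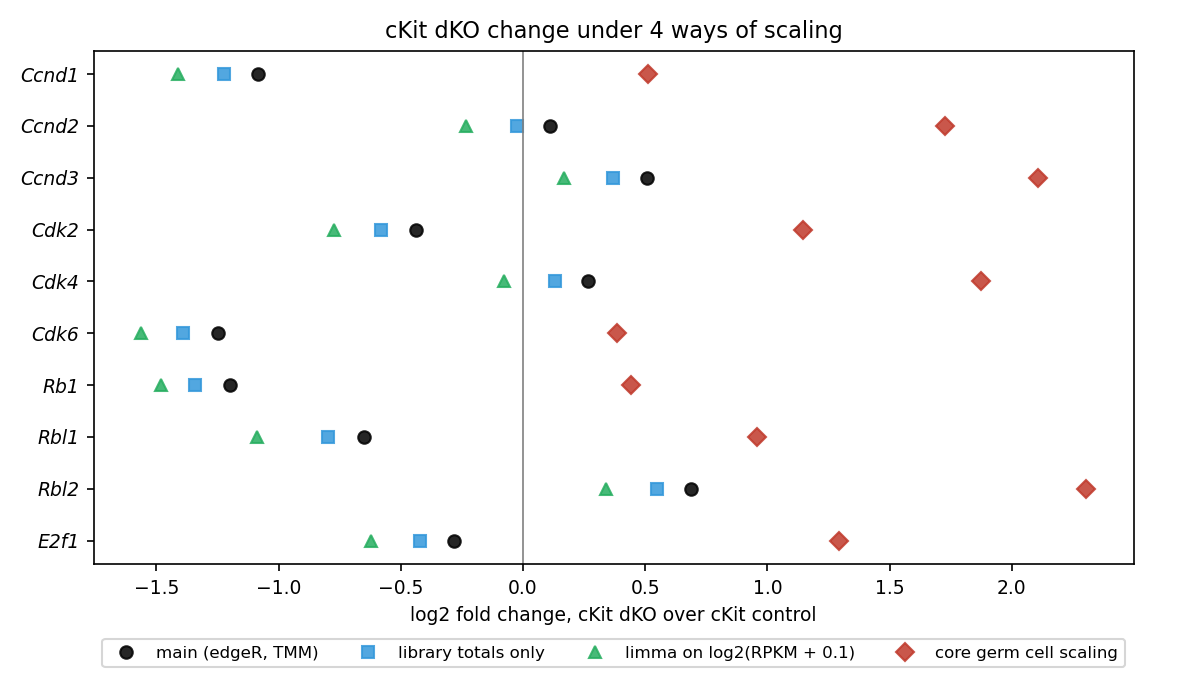
Change of each gene in cKit dKO against cKit control (log2) under 4 ways of scaling: TMM, library totals, limma on log2(RPKM + 0.1) and core germ cell scaling. The order of the genes is nearly kept while the whole set shifts, with Cdk6, Rb1 and Ccnd1 lowest and Rbl2 highest in each.

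Between the populations, the controls differed in Ccnd2 and Cdk4, as given above: 0 of the 10 were higher and 2 lower in cKit control than in Thy1 control, beside 19.7% of all genes called (9.46% higher and 10.3% lower). Rb1 (-0.44 ± 0.17, edgeR adjusted p = 0.088) and Cdk2 (0.52 ± 0.20, edgeR adjusted p = 0.087) did not pass, and Ccnd1, Ccnd3 and Rbl2 were within -0.04 to 0.06. Cdk2 did pass with limma on RPKM (0.73 on log2(RPKM + 0.1), beside a median of 0.23 over all genes). It also passed under core germ cell scaling (0.92, beside a median of 0.43). Rb1 passed with no filter on low counts (-0.43) and with the replicate block (-0.45). In dKO, 2 of the 10 were higher and 5 lower in cKit than in Thy1, beside 34.8% of all genes (14.8% higher and 20% lower). The lower ones were Ccnd2, Ccnd1 (-1.08 ± 0.12), Rb1 (-1.01 ± 0.18), Rbl1 (-0.92 ± 0.23) and Cdk6 (-0.87 ± 0.18), and the higher ones Ccnd3 (0.51 ± 0.12) and Rbl2 (0.39 ± 0.13). Their edgeR adjusted p-values ran from 2.9e-06 for Ccnd2 to 0.026 for Rbl2. The Rbl2 call was lost with library totals, with limma on RPKM and without Thy1 dKO replicate 1 or Thy1 dKO replicate 2, and over the settings other than core germ cell scaling the change ran from 0.25 to 0.49. Under core germ cell scaling all 5 lower ones turned positive in dKO (0.52 to 0.90), as the median of all genes moved from -0.08 to 1.65. These comparisons share groups with the knockout comparisons, so their calls are not separate evidence. Leydig and stromal marker sums differed between the populations by several-fold in opposite directions, and their part in these differences was not tested.

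Compared between genes by RPKM, Cdk4 led in Thy1 control (19.6 ± 1.90, SD, n = 2), followed by Ccnd2 (15.8 ± 1.32), Ccnd3 (13.8 ± 0.546), Ccnd1 (11.2 ± 1.18) and Rb1 (9.21 ± 1.70). Then came E2f1, Cdk6, Rbl2, Cdk2 and Rbl1 (2.11 ± 0.475), and only Cdk6 and Rbl2 overlapped as neighbours. In Thy1 dKO Ccnd2 led (20.5 ± 0.799) ahead of Cdk4 (17.6 ± 0.623), and Rb1 (5.87 ± 1.08) overlapped Rbl2 (5.47 ± 0.361). In cKit control Ccnd3 (16.4 ± 0.177) and Cdk4 (16.1 ± 1.27) overlapped at the top, Ccnd1 followed (12.9 ± 0.913), and Ccnd2, Rb1, Cdk6 and E2f1 came next, each overlapping its neighbour in that order. In cKit dKO Ccnd3 (18.4 ± 0.710) and Cdk4 (15.3 ± 0.923) led, and then came Ccnd2 (8.17 ± 0.762), Rbl2 (6.74 ± 0.0785) and Ccnd1 (4.80 ± 0.441). Rb1 (2.74 ± 0.0490) was the third lowest there and overlapped Cdk2 (3.07 ± 0.867), above Cdk6 (2.21 ± 0.326) and Rbl1 (0.844 ± 0.190).

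The genes around the 10 were read through 7 lists of 85 genes, 84 of them tested, which were drawn up with earlier results of these data known. In cKit dKO 11 were higher and 38 lower, beside 13.2% and 15.4% of all genes, and these 2 shares are the background of each list count in cKit dKO. In Thy1 dKO 0 of 84 passed edgeR, beside 0.624% of all genes. Of the 84, 15 had an unadjusted p under 0.05, beside 2059 of the 14907 genes tested. DESeq2 called 1, beside 334 of all genes, and limma called 0. Under core germ cell scaling 62 of the 84 were called higher and 1 lower in cKit dKO, beside 12114 higher and 64 lower of 14907 genes. The directions in the next paragraphs are therefore relative to all genes, like those of the 10.

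Upstream, 6 of 15 genes that carry growth signals to the D cyclins were higher and 2 lower in cKit dKO (list median 0.28). Etv5, a target of growth factor signalling in spermatogonia, rose from 40.2 and 45.2 CPM in cKit control to 97.3 and 115.9 CPM in dKO (1.32 ± 0.14, edgeR adjusted p = 1.3e-05). Mycn, a Myc family factor, fell from 22.3 and 21.4 CPM to 11.7 and 7.37 CPM (-1.20 ± 0.24, edgeR adjusted p = 0.0015). Myc itself, at a higher level, went the other way, from 137 and 170 CPM to 237 and 309 CPM (0.83 ± 0.15, edgeR adjusted p = 8.3e-04). Mtor, the growth kinase, fell from 248 and 219 CPM to 115 and 117 CPM (-1.01 ± 0.12, edgeR adjusted p = 2.4e-05). Each of these pairs of groups was apart.

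Of the inhibitors that bind these kinases, 4 of 7 were higher and 2 lower in cKit dKO. Cdkn1c stood at 21.9 and 21.3 CPM in cKit control and 49.6 and 40.5 CPM in dKO (1.06 ± 0.16, edgeR adjusted p = 2.1e-04), which is still below the 56.0 to 81.1 CPM of the Thy1 libraries. Cdkn2c, an inhibitor of Cdk4 and Cdk6, rose from 5.02 and 6.64 CPM to 13.9 and 10.5 CPM (1.08 ± 0.33, edgeR adjusted p = 0.025). The other two, Cdkn1a (0.61 ± 0.21, edgeR adjusted p = 0.043) and Cdkn1b (0.83 ± 0.26, edgeR adjusted p = 0.029), are named because the count is small. Cdkn2b, also an inhibitor of Cdk4 and Cdk6, fell from 2.51 and 3.57 CPM to 0.320 and 0.314 CPM (-3.19 ± 0.77, edgeR adjusted p = 0.0062), a level of few counts. Its neighbour Cdkn2a, a gene that Polycomb complexes are known to silence, had 21 counts over both cKit controls and 0 in cKit dKO, at least 4.56-fold lower if 3 counts over the group are taken as the floor. That floor covers counting error only. Cdkn2a was at 1.09 to 1.53 CPM in the Thy1 libraries, with a dKO change of -0.15 ± 0.77 (edgeR adjusted p = 0.96).

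Downstream of the kinases, 5 of 10 genes of the E and A cyclins, their kinase and its activators were lower in cKit dKO and 0 higher. Ccne1 stood at 14.1 and 10.2 CPM in cKit control and 2.24 and 6.59 CPM in dKO (-1.46 ± 0.41, edgeR adjusted p = 0.015). Ccne2 stood at 30.3 and 15.4 CPM in control and 13.4 and 9.57 CPM in dKO (-1.01 ± 0.29, edgeR adjusted p = 0.017). Both sets of groups were apart, with wide spread between replicates. Ccnh, a subunit of the kinase that activates cyclin-dependent kinases, changed by -0.91 ± 0.19 (edgeR adjusted p = 0.0022). In Thy1 dKO Ccne1 changed by 0.09 ± 0.39 and Ccne2 by 0.02 ± 0.27, neither past the test.

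Of the other E2F and DP factors 2 of 9 were lower, near the 15.4% of all genes, and 0 higher: E2f7 (-1.07 ± 0.23, edgeR adjusted p = 0.0028), a repressor, and E2f3 (-0.67 ± 0.20, edgeR adjusted p = 0.021), an activator. Of the MuvB and DREAM partners of the RB family 3 of 9 were lower and 1 higher. Foxm1 and Mybl2, which join MuvB in dividing cells, fell by 1.30 ± 0.18 and 1.39 ± 0.25 on the log2 scale (edgeR adjusted p = 1.1e-04 and 8.2e-04). Lin52, a MuvB core subunit, rose from 3.29 and 3.70 CPM to 6.40 and 8.63 CPM (1.11 ± 0.38, edgeR adjusted p = 0.039). Of the genes that turn over G1 cyclins and inhibitors 3 of 9 were lower, beside 15.4% of all genes, and 0 higher, namely Skp2 (-0.57 ± 0.13), Cul3 (-0.54 ± 0.12) and Cul1 (-0.49 ± 0.15).

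Of 25 E2F targets of S phase entry 21 were lower and 0 higher in cKit dKO, with a median of -0.94. Cdt1, a loader of the replicative helicase, fell from 53.1 and 39.1 CPM in cKit control to 16.5 and 17.4 CPM in dKO (-1.45 ± 0.20, edgeR adjusted p = 9.2e-05). Pole, the leading strand polymerase, fell from 285 and 216 CPM to 89.2 and 111.7 CPM (-1.32 ± 0.14, edgeR adjusted p = 1.6e-05). Mcm6, a helicase subunit, changed by the same amount (-1.32 ± 0.14). In Thy1 dKO the median of the 25 was -0.25, beside 0.03 over all genes, with 0 called by edgeR. There 7 had an unadjusted p under 0.05, beside 2059 of all 14907 genes tested, while DESeq2 called 1 and limma 0. Under core germ cell scaling their median in cKit dKO was 0.67, with 12 higher and 0 lower. Over all 14907 genes the median was 1.63 there, with 12114 higher and 64 lower.

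**Figure D5:**
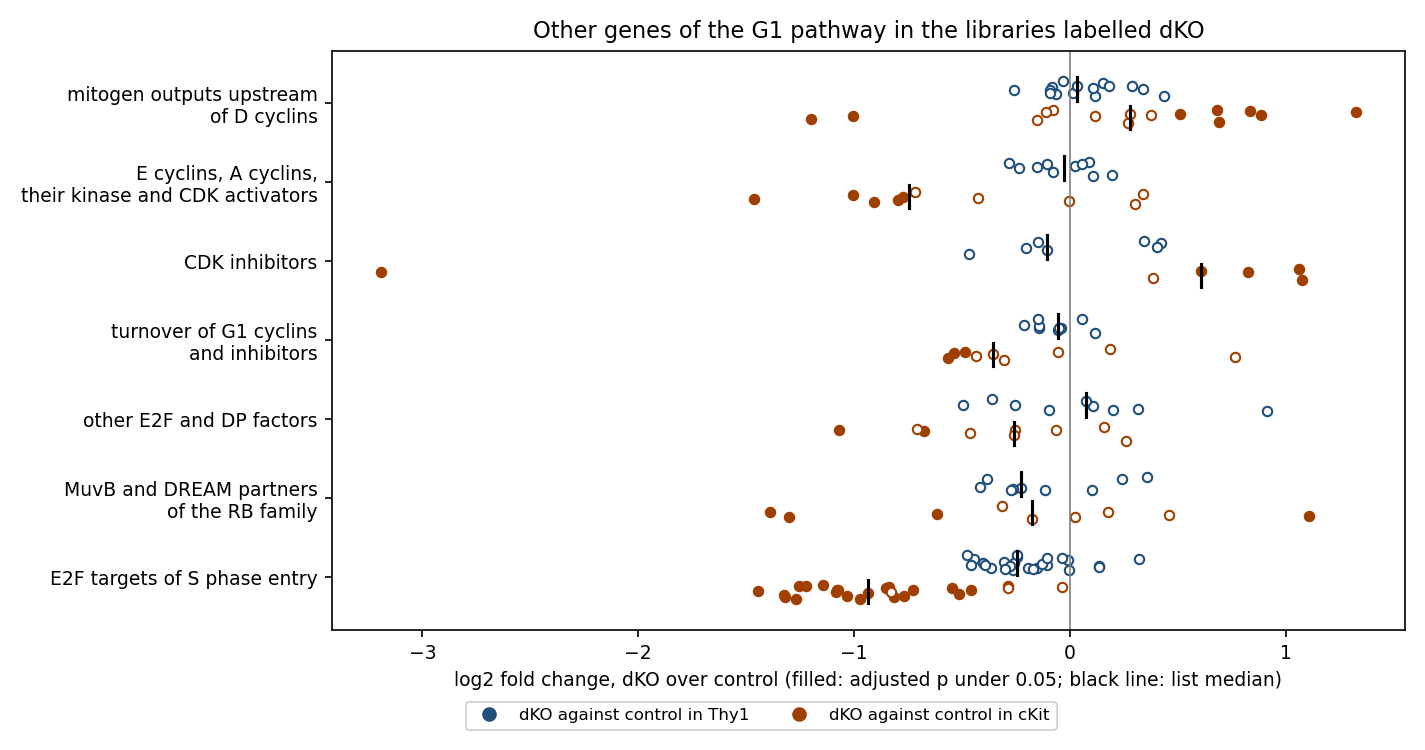
Log2 fold change of each tested gene of 7 pathway lists between dKO and control of Thy1 and of cKit (filled: adjusted p under 0.05; black line: list median); Cdkn2a in cKit, at 0 counts in dKO, is not drawn. In cKit 21 of the 25 E2F targets are filled on the lower side, and no Thy1 point is filled.

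Between the controls, 4 of the 84 list genes were higher and 7 lower in cKit than in Thy1, beside 9.46% and 10.3% of all genes. Cdkn1c and Cdkn1a were lower by -1.46 ± 0.16 (edgeR adjusted p = 7.0e-06) and -1.37 ± 0.20 (edgeR adjusted p = 1.7e-04), and Myc was higher by 1.17 ± 0.15 (edgeR adjusted p = 5.4e-05). In dKO, 5 were higher and 41 lower in cKit than in Thy1, beside 14.8% and 20% of all genes.

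By the rule for likeness of pattern, the leading gene of each role by mean RPKM was set against 10197 genes by Pearson's r of log2 CPM over the 8 libraries. Nearest to Ccnd3 were Brd1 (r = 0.992), Gnl3l (0.990) and Arid4a (0.986), and nearest to Rb1 were Ubap2 (0.993), Prim2 (0.992) and Lsm12 (0.992). Nearest to Cdk4 were Bloc1s1 (0.975), Rpl21 (0.962) and Dstn (0.957), and nearest to E2f1 were Rassf3 (0.973), Psmg2 (0.971) and Fastkd5 (0.968). All genes share the same 8 libraries and their scaling, so high values of r are a description of these libraries.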

How the data were processed

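Per the labels' protocols, total RNA came from RNeasy micro columns and was amplified with NuGEN Ovation v2 before Nextera XT library preparation and HiSeq sequencing. STAR 2.4.2a was the aligner and mm10 the build, per the submitters' processing notes. The counting tool, strand setting and filters are not given in the sources used here. The deposited tables list 26099 RefSeq entries with whole-number read counts and RPKM values that the authors computed by transcript length and library size, per the file headers. Here counts and RPKM were summed per symbol. Between 8.42% and 13.6% of the counts were Rn45s, a precursor of ribosomal RNA. The reads carry no molecular identifiers.

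Tests used edgeR 4.0.16 in R 4.3.3 (filterByExpr, TMM, 1 mean per group over all 8 libraries, 4 residual degrees of freedom, glmQLFTest, two-sided, Benjamini-Hochberg adjustment over 14907 genes, threshold 0.05). They were also run on simulated data with the same spread for all genes and balanced changes in few genes. That run does not bear on how these libraries should be scaled. Alternatives used DESeq2 1.42.0, limma 3.58.1 on log2(RPKM + 0.1) and log2(RPKM + 1), other scalings, filters and entries, and fits without each library. Shares were tested by exact permutation. The 10 genes were chosen by name and are all given. The 7 pathway lists and the marker lists (core germ cell, undifferentiated and differentiating spermatogonia, Sertoli, Leydig, peritubular and stromal, endothelial, macrophage and mast cell; another list is not reported here) were chosen, like the 10 genes, with earlier results of these data known. From each pathway list the text may name the 3 called genes of largest change whose mean log2 CPM is 1 or more, and always Cdkn2a, Ccne1 and Ccne2. Cdkn1b, and Cdkn1a and Myc in cKit dKO, are named outside this rule. Patterns nearest to 4 genes were sought among genes with a mean log2 CPM of at least 3. Undifferentiated markers (15) summed to 1061 to 1153, 759 to 806, 538 to 604 and 388 to 425 CPM in control and dKO of Thy1 and then of cKit.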

Additional observations from a re-analysis of the deposited data

Results flagged for a closer look

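The test of the difference between the knockout changes in cKit and in Thy1 passed in edgeR (adjusted p under 0.05) for 883 of 14907 genes, 2 of the 10 genes and 13 of the 84 list genes. Of the 10 genes these were Ccnd1 (-1.04) and Cdk6 (-1.09), in log2 units as cKit change minus Thy1 change. Of the list genes, 6 are named by the rule: Mycn (-1.21), Mcm6 (-1.15), Pole (-1.04) and Cdt1 (-0.97) changed more strongly downward in cKit. Etv5 (0.89) and Tcf7l2 (0.85), a partner of beta-catenin, changed more strongly upward in cKit. Of the core germ cell genes 14 of 22 were lower in this test, beside 4.06% of all genes, and the part of that shift in these values was not tested.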

How the results depend on the processing

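The counts limit what can be seen: with 2 libraries a group, a change of Rbl1 or Cdk2, at 12.2 to 39.9 CPM, carried a standard error of 0.20 to 0.23 on the log2 scale. Ccnd1, Cdk6 and Rb1 kept their call in cKit dKO in all 19 settings other than core germ cell scaling, the reported one included. Of the 10 genes, edgeR called 0 in Thy1 dKO as reported, while DESeq2 called 2, the fit with no filter on low counts 2, the fit of the 4 Thy1 libraries alone 2 and the fit with the replicate block 1 (Rb1); leaving out each library gave 0 to 1. All genes called in Thy1 dKO, 93 as reported, were 334 with DESeq2, 563 with no filter, 9 with the entry of most counts, 6 and 24 with limma at pseudocounts of 0.1 and 1, 157 with the replicate block and 870 in the fit of 4 libraries; leaving out each library gave 3 to 400. In cKit dKO (4259) leaving out each library gave 2386 to 3972 genes, between the controls (2939) 1717 to 3575, between the dKO groups (5190) 3101 to 5245, and for the difference (883) 219 to 1268. Of the 10 genes it gave 1 to 3 between the controls and 1 to 2 for the difference. The difference gave 1490 genes with no filter and 433 with the entry of most counts, which also left 1 of the 10 genes. Replicate numbers did not pair the libraries (correlations of their differences between groups -0.049 to 0.052).

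Core germ cell scaling called 12178 genes in cKit dKO, 11930 between the dKO groups and 8661 for the difference, and of the 10 genes 1 between the controls and 5 for the difference. It turned these changes: in Thy1 dKO Ccnd1 (0.24), Cdk4 (0.16), Cdk6 (0.12) and Rbl1 (0.14); in cKit dKO Ccnd1 (0.51), Cdk2 (1.15), Cdk6 (0.39), Rb1 (0.44), Rbl1 (0.96) and E2f1 (1.29); between the controls Ccnd1 (0.38) and E2f1 (0.13); between the dKO groups Ccnd1 (0.65), Ccnd2 (0.52), Cdk4 (1.64), Cdk6 (0.90), Rb1 (0.74), Rbl1 (0.79) and E2f1 (1.46); and in the difference Ccnd1 (0.27), Ccnd2 (1.04), Cdk2 (0.84), Cdk6 (0.26), Rb1 (0.79) and Rbl1 (0.82). By construction it shifts all genes together. The other sign changes were of values not called. With limma at 0.1 and 1 they were Ccnd3 (-0.010 and -0.0098) and Cdk2 (-0.0054 and -0.0042) in Thy1 dKO, Ccnd2 (-0.23 and -0.21) and Cdk4 (-0.079 and -0.074) in cKit dKO, Ccnd1 between the controls (0.20 and 0.19), Cdk2 between the dKO groups (-0.042 and -0.028) and E2f1 in the difference (-0.28 and -0.23). With library totals they were Ccnd2 in cKit dKO (-0.025), Cdk2 between the dKO groups (-0.071) and E2f1 in the difference (-0.089). With a mean CPM of at least 5 they were Ccnd3 (-0.022) and Cdk2 (-0.0098) in Thy1 dKO and Ccnd3 between the controls (-0.0093), and in the fit of 4 libraries Ccnd3 in Thy1 dKO (-0.012). Leaving out each library gave ranges across 0 for Ccnd1 (-0.14 to 0.046), Ccnd3 (-0.030 to 0.039) and Cdk2 (-0.040 to 0.076) in Thy1 dKO, Ccnd1 (-0.072 to 0.0014), Ccnd3 (-0.030 to 0.054) and Rbl2 (-0.027 to 0.16) between the controls, Cdk2 (-0.14 to 0.37) and Cdk4 (-0.16 to 0.058) between the dKO groups, and E2f1 in the difference (-0.047 to 0.29). The cause was not tested.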
